A study of Mus musculus with 11 samples.

Results

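The genes described here are 6 matrix metalloproteinases (*Mmp2*, *Mmp3*, *Mmp8*, *Mmp9*, *Mmp12* and *Mmp14*), 2 tissue inhibitors of metalloproteinases (*Timp2* and *Timp3*) and 2 proteases of the ADAMTS family (*Adamts1* and *Adamts4*). They were chosen by their symbols, with earlier results of these data known, and make up 10 of the 32285 genes in the count matrices. The shares of all genes given beside their counts therefore describe them and are no test. The data are 10x Genomics 3′ single-cell RNA sequencing libraries of enzymatically digested brain tissue, which the study's methods give as the right brain, with 1 library for each of 11 mice. Wild-type (WT) C57BL/6 mice and mice with a whole-body knockout of *Lrg1* (*Lrg1*-/-), which encodes a secreted leucine-rich glycoprotein, underwent either sham surgery or middle cerebral artery occlusion and reperfusion (MCAO/R). In MCAO/R, a nylon filament was pushed into the internal carotid artery under isoflurane, blocked the middle cerebral artery and was then withdrawn, whereas in the sham operation it did not enter that artery. The groups were sham + WT (3 mice), sham + *Lrg1*-/- (3 mice), MCAO/R + WT (2 mice) and MCAO/R + *Lrg1*-/- (3 mice). The methods give the WT mice as young adult males and a somewhat older age for the *Lrg1*-/- mice, so that age and genotype cannot be told apart, and the reperfusion time is not stated for the sequenced mice, although the paper's discussion speaks of an early time for the brain tissue. The knockout removed *Lrg1* from every cell of the animal, blood cells included, and the methods name both C57BL/6N and C57BL/6J as its background.

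Matrix metalloproteinases are zinc endopeptidases that are made as inactive precursors and, once activated, cleave collagens, laminins and other proteins of the extracellular matrix. Tissue inhibitors of metalloproteinases bind the active site and block it, and ADAMTS1 and ADAMTS4 are secreted proteases that cut large proteoglycans such as versican and brevican. In the ischemic brain these enzymes are known for the breakdown of the vascular basement membrane and for the release of granule-stored collagenase and gelatinase by infiltrating neutrophils.

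After filters on genes, UMIs (distinct transcript molecules) and mitochondrial content and the removal of likely doublets, 125414 cells remained, of which 91333 fell into clusters named as 1 of 18 cell types by markers that hold none of the 10 genes. Each type had the highest summed level of its own markers. The other 34081 cells (27.2%) were in clusters in which markers of a second type were too close or which failed another naming rule, and 23720 of them came from the MCAO/R + *Lrg1*-/- group. Libraries held between 37159497 and 171813031 UMIs, with a median of 3190 to 11504 UMIs per retained cell, and pairs of libraries shared at most 1.15% of their barcodes. *Lrg1* was read first as a check of the labels. In endothelial cells it stood at 7.84, 24.6 and 7.71 CPM (UMIs of the gene per 1000000 UMIs of the cell type in that library) in the sham + WT libraries and at 428 and 538 CPM in the MCAO/R + WT libraries, and it was at 0 in every named cell type of all 6 *Lrg1*-/- libraries, with 1 UMI among the unnamed cells of MCAO/R + *Lrg1*-/- replicate 5. The *Lrg1*-/- libraries stood apart in other ways. The summed level of 6 red blood cell markers in microglia was between 15.6 and 20.7 CPM in the 5 WT libraries and between 5288 and 18780 CPM in the 6 *Lrg1*-/- libraries. The sum of 8 immediate early genes, which respond to tissue dissociation, was between 28700 and 34750 CPM against 11630 to 19500 CPM in microglia. In endothelial cells that sum was also lower in the knockout within each surgery, and in pericytes the genotypes overlapped. In oligodendrocytes it went the other way after sham surgery, with 2163 to 2956 CPM in WT and 4168 to 6842 CPM in the knockout. In 4 of the 6 *Lrg1*-/- libraries (all 3 of sham and replicate 1 of MCAO/R) the barcodes numbered 15500, 9000, 5650 and 8500 and the lowest held 551 to 770 UMIs, whereas the lowest held 500 in the other 7 libraries. These differences and the genotype cannot be told apart.

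For each cell type, raw UMIs were summed per library, and libraries with at least 20 cells of the type were compared with the quasi-likelihood test of edgeR over all genes of the type. A gene was called when its Benjamini‒Hochberg adjusted p was below 0.05 and its natural-log fold change exceeded 0.25. The p-values measure the spread between mice of 1 group. Where leaving out a library left 1 in a group, as for either MCAO/R + WT library, that library was assumed to vary like those of the other groups, which alone gave the spread. Summed UMIs cannot tell fewer expressing cells from less RNA per cell. Over all contrasts, 82 of 380 tests of the 10 genes were called. Over all genes, 10.2%, 14.9%, 11.6%, 10.7% and 1.8% of tests were called in the contrasts, in the order in which they follow below. A gene near 0 in all groups but 1 passed the low-count filter only through that group, so that it had to differ. Of the 82 calls, 23 were of this kind, where the gene would not have passed without the libraries of the group in which it was higher. They were the calls of *Mmp3*, of *Mmp8* and *Mmp9* outside neutrophils and of *Mmp12* outside microglia, apart from 1 sham contrast of *Mmp12* in the choroid plexus. They stand in the counts below, where their number is given, and their values are a description with no p and support nothing. The map of mean levels shows where each gene was found, and the map of fold changes shows the called differences.

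**Figure D1:**
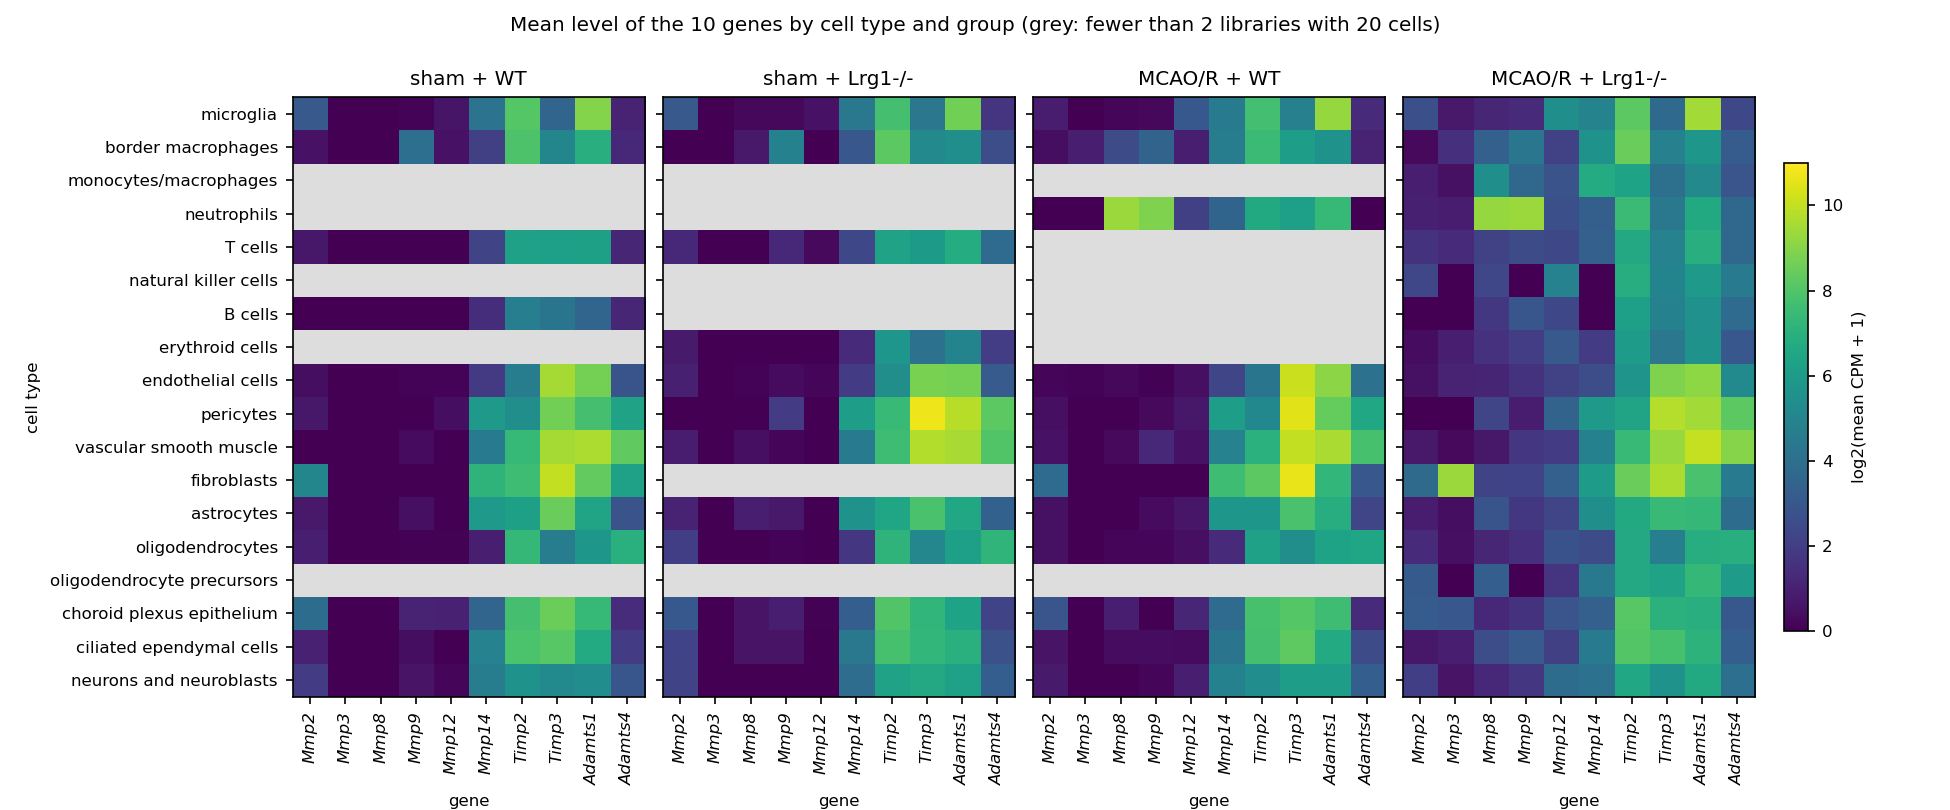
Mean level of the 10 genes in each cell type and group, as log2(mean CPM + 1), with 1 panel per group and grey where fewer than 2 libraries held 20 cells. *Timp3* and *Adamts1* were broadly present in vascular cells, whereas *Mmp8* and *Mmp9* were high in neutrophils and *Mmp3* reached at most 0.886 CPM in the WT groups.

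**Figure D2:**
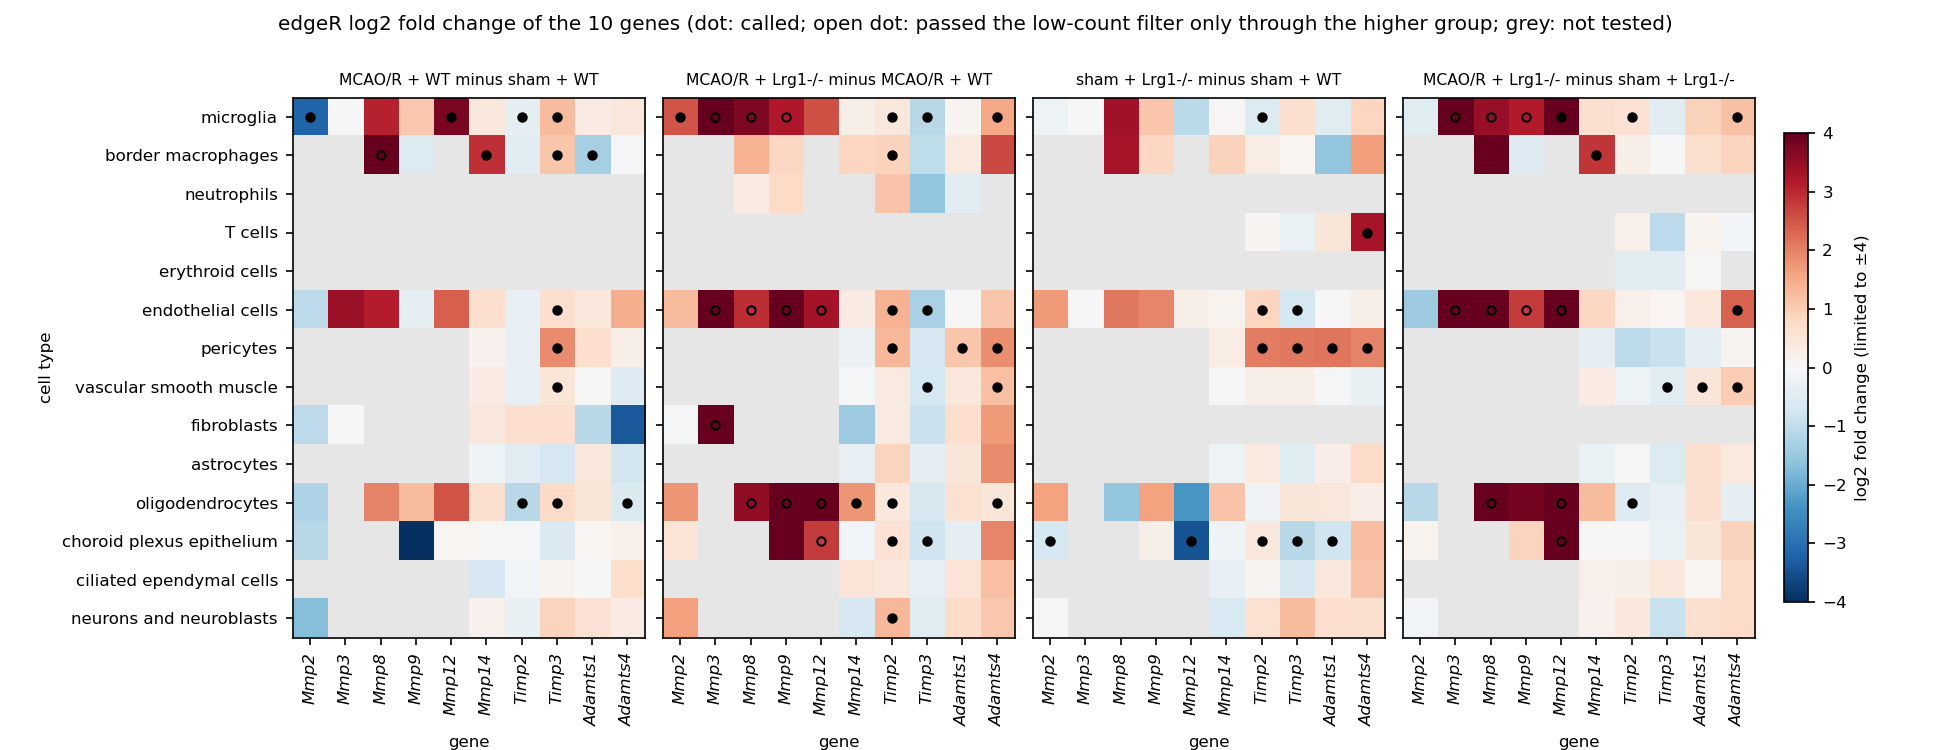
edgeR log2 fold change of the 10 genes by cell type in 4 contrasts, with the color limited to 4 on either side of 0, dots on called tests, open where the gene passed the low-count filter only through the group in which it was higher, and grey where a gene was not tested. In MCAO/R + *Lrg1*-/- minus MCAO/R + WT 12 of 30 dots are open, and all calls of *Timp3* in it were decreases.

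After MCAO/R in WT mice, *Timp3* was higher in 6 cell types, *Mmp14* was higher in border-associated macrophages, and *Mmp2* was 9.26-fold lower in microglia. In MCAO/R + WT minus sham + WT, 14 of 77 tests were called, 9 higher and 5 lower, and 28 had an unadjusted p under 0.05. The increase of *Mmp8* in border-associated macrophages was of the kind that had to follow from the filter, which left 8 higher. *Timp3* was called in every type that held a call. In microglia 4 of 10 tested genes were called (*Mmp12* and *Timp3* higher, *Mmp2* and *Timp2* lower), where 22.2% of all tested genes were called. In border-associated macrophages it was 4 of 7 (*Mmp8*, *Mmp14* and *Timp3* higher, *Adamts1* lower), beside 11.4% of all genes. In oligodendrocytes it was 3 of 9 (*Timp3* higher, *Timp2* and *Adamts4* lower), beside 22.3%. *Timp3* alone was called in endothelial cells (1 of 10, beside 18.9%), pericytes (1 of 5, beside 4.42%) and vascular smooth muscle cells (1 of 5, beside 13.6%). None of the 10 genes was called in astrocytes (1.82% of all genes), choroid plexus epithelial cells (1.56%), ciliated ependymal cells (0.611%), fibroblasts (0.513%) or neurons and neuroblasts (0.0676%). The count of 14 fell to 8 without MCAO/R + WT replicate 1, to 8 without sham + WT replicate 1 and to 9 without either of the other sham + WT replicates. Without MCAO/R + WT replicate 2 it was 14 again, but 12 higher and 2 lower, and 8 of these calls were among the original ones.

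Between the genotypes after surgery, *Timp3* was called lower in the knockout in 4 cell types, *Timp2* was higher in 7 and *Adamts4* in 4. In MCAO/R + *Lrg1*-/- minus MCAO/R + WT, 30 of 82 tests were called, 26 higher and 4 lower, and 48 had an unadjusted p under 0.05. Of the 26 increases, 12 were of *Mmp3*, *Mmp8*, *Mmp9* or *Mmp12* in cells in which the gene passed the filter only through MCAO/R + *Lrg1*-/-, and 14 were not. The 12 included *Mmp3*, *Mmp8* and *Mmp9* in microglia, these and *Mmp12* in endothelial cells, and *Mmp8*, *Mmp9* and *Mmp12* in oligodendrocytes. *Mmp12* in the choroid plexus and *Mmp3* in fibroblasts were the others. The shares of all genes given below cannot be set against counts that hold these calls. Without them, the endothelial calls were those of *Timp2* and *Timp3*. Microglia held 7 calls among 10 tested genes (*Mmp2*, *Mmp3*, *Mmp8*, *Mmp9*, *Timp2* and *Adamts4* higher, *Timp3* lower), beside 20.9% of all genes. Endothelial cells held 6 of 10 (*Mmp3*, *Mmp8*, *Mmp9*, *Mmp12* and *Timp2* higher, *Timp3* lower), beside 24.8%, and oligodendrocytes 6 of 9 (*Mmp8*, *Mmp9*, *Mmp12*, *Mmp14*, *Timp2* and *Adamts4*, all higher), beside 29.3%. In pericytes 3 of 5 were higher (*Timp2*, *Adamts1* and *Adamts4*), beside 11.3%. Choroid plexus epithelial cells held 3 calls among 8 genes (*Mmp12* and *Timp2* higher, *Timp3* lower), beside 29.1%, and vascular smooth muscle cells 2 of 5 (*Adamts4* higher, *Timp3* lower), beside 16.6%. The other calls were *Timp2* in border-associated macrophages (1 of 7, beside 11.4%), *Timp2* in neurons and neuroblasts (1 of 6, beside 5.64%) and *Mmp3* in fibroblasts (1 of 7, beside 0.135%). No member was called in astrocytes (1.62% of all genes), ciliated ependymal cells (2.84%) or neutrophils (0.0795%). The count of 30 fell to 14 without MCAO/R + WT replicate 2 and to 19 without MCAO/R + *Lrg1*-/- replicate 2.

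The genotypes already differed after sham surgery. In sham + *Lrg1*-/- minus sham + WT, 13 of 74 tests were called, 7 higher and 6 lower, and 20 had an unadjusted p under 0.05. Pericytes held 4 of 5 (*Timp2*, *Timp3*, *Adamts1* and *Adamts4*, all higher), beside 8.76% of all genes. Choroid plexus epithelial cells held 5 of 8 (*Timp2* higher, *Mmp2*, *Mmp12*, *Timp3* and *Adamts1* lower), beside 24%. Endothelial cells held 2 of 10 (*Timp2* higher, *Timp3* lower), beside 15.5%, microglia 1 of 10 (*Timp2*, lower), beside 23.7%, and T cells 1 of 4 (*Adamts4*, higher), beside 14.9%. There was no call in astrocytes (2% of all genes), border-associated macrophages (1.57%), ciliated ependymal cells (2.44%), neurons and neuroblasts (3.88%), oligodendrocytes (11.6%) or vascular smooth muscle cells (11%).

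Within the knockout, *Mmp12* was higher after surgery in microglia, *Mmp14* in border-associated macrophages and *Adamts4* in 3 cell types. In MCAO/R + *Lrg1*-/- minus sham + *Lrg1*-/-, 19 of 77 tests were called, 17 higher and 2 lower, and 32 had an unadjusted p under 0.05. Of the 17 increases, 10 were of *Mmp3*, *Mmp8*, *Mmp9* or *Mmp12* in cells in which the gene passed the filter only through MCAO/R + *Lrg1*-/-, and 7 were not. The 10 included *Mmp3*, *Mmp8* and *Mmp9* in microglia and these and *Mmp12* in endothelial cells. *Mmp8* and *Mmp12* in oligodendrocytes and *Mmp12* in the choroid plexus were the others. The shares of all genes given below cannot be set against counts that hold these calls. Microglia held 6 of 10 (*Mmp3*, *Mmp8*, *Mmp9*, *Mmp12*, *Timp2* and *Adamts4*), beside 35.9% of all genes, and endothelial cells 5 of 10 (*Mmp3*, *Mmp8*, *Mmp9*, *Mmp12* and *Adamts4*), beside 20.6%. Oligodendrocytes held 3 of 9 (*Mmp8* and *Mmp12* higher, *Timp2* lower), beside 13.7%, and vascular smooth muscle cells 3 of 5 (*Adamts1* and *Adamts4* higher, *Timp3* lower), beside 13.8%. *Mmp14* was called in border-associated macrophages (1 of 7, beside 8.53%) and *Mmp12* in choroid plexus epithelial cells (1 of 8, beside 1.84%). T cells (1.42% of all genes), astrocytes (0.274%), ciliated ependymal cells (2.65%), erythroid cells (5.85%), neurons and neuroblasts (0.368%) and pericytes (2.21%) held none. The count of 19 fell to 9 without sham + *Lrg1*-/- replicate 2, to 10 without its replicate 1 and to 12 without MCAO/R + *Lrg1*-/- replicate 2.

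The interaction of genotype and surgery asks whether the change after MCAO/R differed between the genotypes. It was called in 6 of 70 tests, and 17 had an unadjusted p under 0.05. The calls were in microglia (3 of 10: *Mmp2* and *Timp2* positive, *Timp3* negative, beside 8.36% of all genes), pericytes (1 of 5: *Timp3*, negative, beside 0.315%) and vascular smooth muscle cells (2 of 5: *Adamts4* positive, *Timp3* negative, beside 0.768%). None was called in astrocytes (0%), border-associated macrophages (0.0836%), choroid plexus epithelial cells (0%), ciliated ependymal cells (0%), endothelial cells (2.12%), neurons and neuroblasts (0%) or oligodendrocytes (2.7%). The count of 6 rose to 10 without MCAO/R + WT replicate 1 and fell to 3 without sham + *Lrg1*-/- replicate 1 or 2 or any 1 of the sham + WT replicates.

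*Mmp2*, a gelatinase of the basement membrane (chr8:92827291-92853420, plus strand, GRCm38), fell in microglia after MCAO/R in WT mice. In sham + WT mice its level was highest in fibroblasts (32.6 ± 7.89 CPM, SD, n = 3), then in choroid plexus epithelial cells (13.8 ± 2.99), microglia (7.40 ± 0.221) and neurons and neuroblasts (2.72 ± 0.612), with no overlap between neighbours in this order. Microglia nevertheless held 75.4% of its 1177 UMIs in that group, since they were the most numerous cells. In microglia, *Mmp2* was at 7.59, 7.44 and 7.16 CPM in the sham + WT libraries, at 6.52, 8.33 and 7.37 CPM in the sham + *Lrg1*-/- libraries, at 1.03 and 0.530 CPM in the MCAO/R + WT libraries and at 9.43, 3.46 and 3.59 CPM in the MCAO/R + *Lrg1*-/- libraries. Both MCAO/R + WT libraries lay below all 9 others, and the MCAO/R + *Lrg1*-/- libraries spread on both sides of the sham range. The MCAO/R + WT level was 9.26-fold lower than that of sham + WT (log2 fold change -3.21 ± 0.40, SE; adjusted p = 0.000101). MCAO/R + *Lrg1*-/- was 5.73-fold higher than MCAO/R + WT (2.52 ± 0.40, adjusted p = 0.00103), and the interaction was 2.72 ± 0.51 (adjusted p = 0.011). Without MCAO/R + WT replicate 1 the fall in WT was -3.82 and the interaction 3.32, both still called, with 1 library in that group and the spread taken from the others. Cells with an *Mmp2* UMI made up 6.06% to 7.15% of sham + WT microglia, 1.28% and 0.517% of MCAO/R + WT microglia and 14.8%, 3.67% and 2.74% of MCAO/R + *Lrg1*-/- microglia, against 0.387% to 2.58% of oligodendrocytes in the 5 MCAO/R libraries. In MCAO/R + WT replicate 1 the shares of 1.28% and 0.778% came from medians of 12310 UMIs per microglial cell and 15360 per oligodendrocyte.

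The drop was also seen in pooled values within microglial clusters that WT and knockout cells shared. Pooled over the libraries of a group, cluster 1.0 held *Mmp2* at 8.49 CPM in sham + WT, 0.738 in MCAO/R + WT and 4.52 in MCAO/R + *Lrg1*-/-, and cluster 1.1 held it at 6.67, 0.920 and 3.40 CPM. These values came from 806, 6086 and 120 cells in cluster 1.0 and from 89, 2003 and 3215 cells in cluster 1.1, so some rest on few cells. The clusters were unevenly filled, with 73.8% of MCAO/R + WT microglia in cluster 1.0 and 56.2% of MCAO/R + *Lrg1*-/- microglia in cluster 1.2. The summed microglial markers themselves were at 10840 to 11740 CPM in sham + WT microglia, 4920 and 5271 CPM in MCAO/R + WT and 6782 to 8035 CPM in MCAO/R + *Lrg1*-/-. The part of these shifts in the change of *Mmp2* was not tested. In choroid plexus epithelial cells, *Mmp2* was at 16.8, 13.7 and 10.8 CPM in sham + WT and at 7.95, 8.27 and 5.46 CPM in sham + *Lrg1*-/-, a fall of 1.65-fold (adjusted p = 0.0455) that was lost without any 1 of the 6 sham libraries or without either MCAO/R + WT library (adjusted p = 0.0512 to 0.137), with DESeq2 (0.0565), with no low-count filter (0.106), with at least 50 cells (0.0525), without the top cells (0.104) and with a mitochondrial limit of 10% (0.538).

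**Figure D3:**
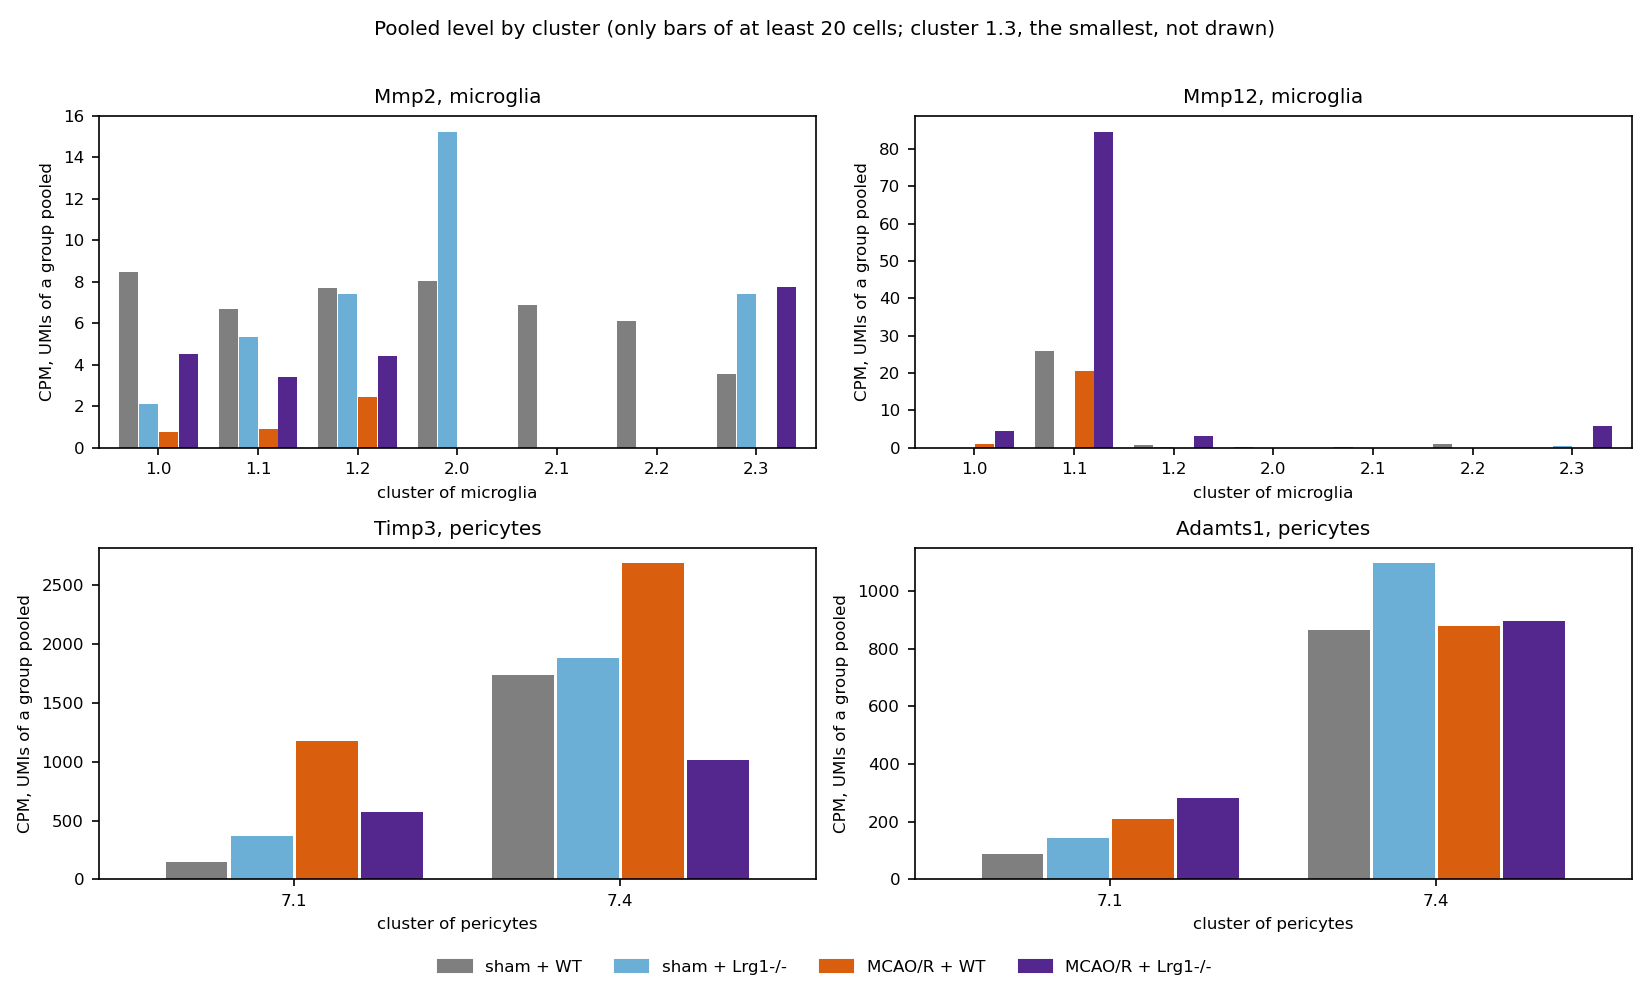
Level by cluster, with the UMIs of all libraries of a group pooled (CPM), for *Mmp2* and *Mmp12* over microglial clusters and *Timp3* and *Adamts1* over pericyte clusters, with no bar where a group had fewer than 20 cells. *Mmp2* was lower in MCAO/R + WT than in sham + WT in clusters 1.0, 1.1 and 1.2, and *Mmp12* was highest in cluster 1.1 (84.7 CPM in MCAO/R + *Lrg1*-/-). Some bars rest on few cells, such as 89 of sham + WT in cluster 1.1 and 79 of MCAO/R + WT in cluster 1.2. Those of sham + *Lrg1*-/- in pericyte clusters 7.1 and 7.4 rest on 26 and 51 cells.

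*Mmp12*, the macrophage elastase, *Mmp3*, a stromelysin that also activates other precursors, and *Mmp8*, the neutrophil collagenase, lie within 224.1 kb on chromosome 9 (chr9:7344381-7369499, chr9:7445822-7455975 and chr9:7558456-7568485, all on the plus strand, GRCm38). The bases before their start sites are shown because AP-1, a transcription factor made of immediate early gene products, is known to act on metalloproteinase promoters. The 250 bases before the RefSeq start sites (GRCm38.p6) are given 5′ to 3′ in lower case, with any match to the AP-1 motif TGANTCA in capitals, for *Mmp3* (chr9:7445572-7445821), for a downstream start of *Mmp12* (chr9:7347124-7347373) and for *Mmp8* (chr9:7558179-7558428), all on the plus strand.
*Mmp3*: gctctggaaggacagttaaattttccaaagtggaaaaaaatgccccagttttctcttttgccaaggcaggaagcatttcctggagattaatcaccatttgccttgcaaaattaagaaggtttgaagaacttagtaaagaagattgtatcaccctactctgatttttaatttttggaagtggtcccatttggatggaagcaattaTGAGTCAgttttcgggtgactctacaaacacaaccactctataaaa
*Mmp12*: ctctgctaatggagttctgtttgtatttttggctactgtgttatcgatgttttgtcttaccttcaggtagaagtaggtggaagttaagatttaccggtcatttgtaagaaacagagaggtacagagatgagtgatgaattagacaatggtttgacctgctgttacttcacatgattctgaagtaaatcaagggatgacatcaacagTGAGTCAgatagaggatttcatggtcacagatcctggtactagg
*Mmp8*: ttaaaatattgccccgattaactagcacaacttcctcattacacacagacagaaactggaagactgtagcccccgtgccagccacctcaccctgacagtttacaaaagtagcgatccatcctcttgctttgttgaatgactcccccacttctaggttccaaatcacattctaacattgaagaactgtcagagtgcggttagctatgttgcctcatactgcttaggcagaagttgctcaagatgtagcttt
The motif, searched on both strands and identical to its own reverse complement apart from the free base, stood at position -46 before the *Mmp3* start and -44 before that start of *Mmp12*. There was no match in the window of *Mmp8*, before the upstream start of *Mmp12* (chr9:7344147-7344396), or before *Mmp14*, *Timp2*, *Timp3* and *Adamts1*. It was found in 2217 of 32851 promoter windows of this length (6.75%), and 7 of the 10 genes had such a window. A match describes the letters only, and a part of AP-1 in the levels of these genes was not tested.

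*Mmp12* rose in microglia after MCAO/R and reached its highest levels in the knockout. It was at 1.37, 0.119 and 0.130 CPM in sham + WT microglia and at 0.148, 0 and 1.23 CPM in sham + *Lrg1*-/- microglia. After MCAO/R it was at 12 and 2.29 CPM in WT and at 30.6, 90.4 and 11.1 CPM in *Lrg1*-/- microglia. All 5 MCAO/R libraries lay above all 6 sham libraries, and MCAO/R + WT replicate 1 lay within the range of the knockout. The increase in WT mice was 13.5-fold (log2 3.75 ± 1.0, adjusted p = 0.0161), and it was lost without MCAO/R + WT replicate 1 (2.05, adjusted p = 0.273), without sham + WT replicate 2 or 3 (adjusted p = 0.0642 and 0.0676), with DESeq2 (0.0545) and with cells thinned to 1000 UMIs (2.71, adjusted p = 0.0852). Without MCAO/R + WT replicate 2 it was 4.51 and without sham + WT replicate 1 it was 5.83. In knockout mice it was 167-fold (3864 against 4 UMIs in the group, log2 7.38 ± 1.46, adjusted p = 0.00163). It was 6.10 without MCAO/R + *Lrg1*-/- replicate 2, 6.73 and 9.08 without sham + *Lrg1*-/- replicates 2 and 5, and called each time. The difference between the genotypes after MCAO/R did not pass the test (2.55 ± 0.93, adjusted p = 0.068). Cells with an *Mmp12* UMI made up 3.08% and 0.353% of MCAO/R + WT microglia and 7.75%, 16.0% and 2.67% of MCAO/R + *Lrg1*-/- microglia, with up to 88 UMIs in 1 cell. *Mmp12* is among the genes that lead cluster 1.1, which held 24.3% of MCAO/R + WT and 40.5% of MCAO/R + *Lrg1*-/- microglia, so its levels by cluster are a description.

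Lower amounts of *Mmp12* were counted in other cell types of the knockout, where it passed the filter only through MCAO/R + *Lrg1*-/-. In endothelial cells it was at 0.547 and 0.164 CPM in MCAO/R + WT and at 1.86, 6.77 and 1.31 CPM in MCAO/R + *Lrg1*-/- libraries (256 against 23 UMIs), with 2 UMIs in sham + *Lrg1*-/-. In oligodendrocytes it was at 0.615 and 0.141 CPM against 4.44, 10.9 and 2.17 CPM (113 against 13 UMIs), with 0 UMIs in sham + *Lrg1*-/- and a level at least 9.90-fold above that group. The MCAO/R groups did not overlap in either type, and replicate 2 of MCAO/R + *Lrg1*-/- was the highest in microglia, endothelial cells and oligodendrocytes. In that library, 16.0% of microglia, 6.20% of endothelial cells and 3.82% of oligodendrocytes had an *Mmp12* UMI, with medians of 10690, 8448 and 3457 UMIs per cell. The 8 microglial markers summed to 225 and 426 CPM in oligodendrocytes of MCAO/R + WT and to between 703 and 1676 CPM in those of MCAO/R + *Lrg1*-/-, and their part was not tested. In choroid plexus epithelial cells, *Mmp12* was at 0.0476, 0.115 and 0 CPM in sham + *Lrg1*-/- and at 4.96, 8.45 and 6.02 CPM in MCAO/R + *Lrg1*-/- libraries, 197 against 2 UMIs, a pooled ratio of 113 with a 95% counting interval of 30.9 to 940. The MCAO/R + WT libraries held 2 UMIs there as well, among fewer cells, which gave a ratio of 6.25 (1.71 to 52). A call of *Mmp12* in sham + *Lrg1*-/- against sham + WT in these cells rested on 2 against 6 UMIs (adjusted p = 0.0409). It was lost without any sham + *Lrg1*-/- library (0.06 to 0.14), without sham + WT replicate 2 (0.0631) or 3 (0.562), without the top cells (0.0856), with doublets kept (0.0749) and with a mitochondrial limit of 10% (0.147).

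*Mmp3* was close to absent outside the MCAO/R + *Lrg1*-/- group. The sham + WT libraries held 0 UMIs of it, the sham + *Lrg1*-/- libraries 2, the MCAO/R + WT libraries 9 and the MCAO/R + *Lrg1*-/- libraries 1117, of which 358 were in fibroblasts and 416 in unnamed cells. In fibroblasts it was at 0 in all other libraries and at 429 and 884 CPM in MCAO/R + *Lrg1*-/- replicates 2 and 5. This was at least 245-fold higher than in MCAO/R + WT, computed against a floor of 3 counts over the group. A few cells held these UMIs. In replicate 2, 75 of 112 UMIs were in 1 of 40 cells, and in replicate 5, 244 of 246 UMIs were in 1 of 55 cells. Without the cell of each library with the most *Mmp3* UMIs, the gene no longer passed the filter on low counts in fibroblasts and could not be tested.

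In microglia and endothelial cells *Mmp3* was counted at low levels. In microglia it was at 0 in all WT and sham libraries and at 1.07, 0.382 and 0.598 CPM in the MCAO/R + *Lrg1*-/- libraries, 41 against 0 UMIs and at least 16.6-fold higher than MCAO/R + WT. In endothelial cells it was at 0.0863 and 0.0410 CPM in MCAO/R + WT and at 0.745, 1.53 and 1.12 CPM in MCAO/R + *Lrg1*-/- (64 against 4 UMIs), at least 11.5-fold higher than in sham + *Lrg1*-/-. The shares of cells with an *Mmp3* UMI in the MCAO/R + *Lrg1*-/- libraries were 0.415% to 1.48% of microglia, 0.899% to 1.19% of endothelial cells and 0% to 0.449% of oligodendrocytes, with medians of 7441 to 15220, 6082 to 12620 and 3457 to 5721 UMIs per cell. In choroid plexus epithelial cells the gene did not pass the filter, and there it was counted in 12, 16 and 52 cells of the MCAO/R + *Lrg1*-/- libraries (1.44, 1.95 and 17.3 CPM). Against sham + *Lrg1*-/- microglia the fold was at least 2.47.

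After MCAO/R, *Mmp8* and *Mmp9* had their highest mean levels in neutrophils in both genotypes, among types with at least 2 libraries of 20 cells. The sham groups held too few neutrophils for this order. In MCAO/R + WT libraries *Mmp8* was at 646 ± 185 CPM and *Mmp9* (gelatinase B, chr2:164940780-164955850, plus strand) at 473 ± 54.5 CPM in neutrophils (SD, n = 2), and among the types with at least 20 cells per library border-associated macrophages came next at 4.69 and 10.2 CPM without overlap. Over the 11 libraries, 64.3% to 100% of neutrophils had an *Mmp9* UMI. In neutrophils, *Mmp8* was at 515 and 776 CPM in MCAO/R + WT and at 566, 1024 and 188 CPM in MCAO/R + *Lrg1*-/-, and *Mmp9* was at 434 and 511 CPM against 710, 874 and 406 CPM. The genotypes overlapped for both genes. Neither passed the test, which left out MCAO/R + *Lrg1*-/- replicate 1 with its 13 neutrophils (*Mmp8* log2 0.33 ± 0.77, adjusted p = 0.88; *Mmp9* 0.81 ± 0.48, adjusted p = 0.49). Without MCAO/R + *Lrg1*-/- replicate 2 the *Mmp8* difference turned to -1.65 (adjusted p = 0.00472), with replicate 5 as the 1 knockout library and the spread taken from the other groups. Monocytes, which could not be tested because both MCAO/R + WT libraries had fewer than 20, held *Mmp8* at 217 and 390 CPM in MCAO/R + WT and at 20.2, 45.8 and 64.1 CPM in MCAO/R + *Lrg1*-/-. The number of neutrophils was 33 in sham + WT, 37 in sham + *Lrg1*-/-, 108 in MCAO/R + WT and 1621 in MCAO/R + *Lrg1*-/-, of which 1301 were in replicate 5, 307 in replicate 2 and 13 in replicate 1. The unnamed cluster 0.0, for which neutrophils were the best match and monocytes too close a second, held 15141 further cells of that group and 158, 181 and 63 of sham + WT, sham + *Lrg1*-/- and MCAO/R + WT, and 93.5% of all its cells were from MCAO/R + *Lrg1*-/- replicate 5.

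In microglia, endothelial cells and oligodendrocytes, both genes passed the filter only through MCAO/R + *Lrg1*-/- and were counted at low levels. In microglia, *Mmp9* was at 0.187 and 0.169 CPM in MCAO/R + WT and at 0, 1.55 and 2.85 CPM in MCAO/R + *Lrg1*-/- (162 against 17 UMIs). In endothelial cells it was at 0.0576 and 0.0410 CPM against 0.186, 1.64 and 4.30 CPM, 82 against 3 UMIs, a pooled ratio of 35.1 with a 95% counting interval of 11.6 to 174. In oligodendrocytes it was at 0.0769 and 0.141 CPM against 0.444, 1.18 and 3.70 CPM (73 against 6 UMIs). Replicate 5 was the highest and replicate 1 the lowest in all 3 cell types, and in microglia replicate 1 lay below both WT libraries. In MCAO/R + *Lrg1*-/- replicate 5, 2.27% of microglia had an *Mmp9* UMI (median 7441 UMIs per cell) against 2.08% of oligodendrocytes (median 3564). In replicate 2 it was 1.79% (median 10690) against 0.704% (median 3457). The summed level of 8 neutrophil markers was also higher in the knockout in endothelial cells and oligodendrocytes but overlapped in microglia, and none of the 8 was at 0 in the MCAO/R groups. They were at 20.9 and 25.9 CPM in MCAO/R + WT and at 56.7, 214 and 432 CPM in MCAO/R + *Lrg1*-/- endothelial cells, and at 22.4 and 20.3 CPM against 43.5, 294 and 357 CPM in oligodendrocytes. In microglia they were at 171 and 408 CPM against 89.1, 284 and 423 CPM. Their part in these levels was not tested.

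**Figure D4:**
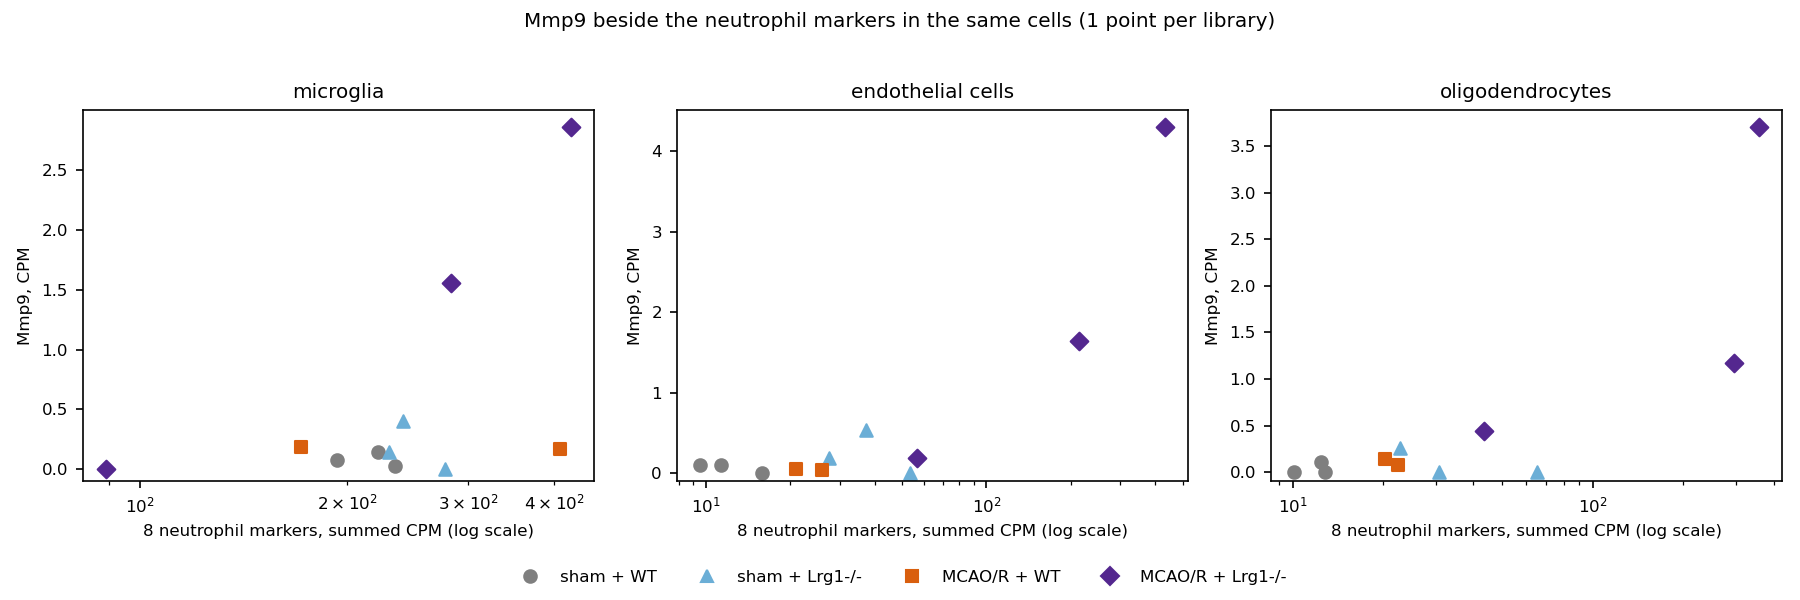
*Mmp9* (CPM) against the summed level of 8 neutrophil markers (CPM, log scale) in the same cells, with 1 point per library, for microglia, endothelial cells and oligodendrocytes. In all 3 panels the highest *Mmp9* value belongs to MCAO/R + *Lrg1*-/- replicate 5, which also had the highest marker sum.

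*Mmp8* had its highest levels in MCAO/R + *Lrg1*-/- in the same 3 cell types. In microglia it was at 0.149 and 0.0482 CPM in MCAO/R + WT and at 0.214, 1.91 and 1.66 CPM in MCAO/R + *Lrg1*-/- (132 against 10 UMIs), and in oligodendrocytes at 0.0769 and 0.141 CPM against 0.444, 2.02 and 1.43 CPM (38 against 6 UMIs), without overlap. In endothelial cells there were 76 against 10 UMIs, and the libraries overlapped. Cells with an *Mmp8* UMI made up 2.08% and 1.28% of microglia in MCAO/R + *Lrg1*-/- replicates 2 and 5, against 1.21% and 0.801% of oligodendrocytes. In border-associated macrophages, *Mmp8* was at 0 in the sham + WT libraries and at 7.44 and 1.94 CPM in the MCAO/R + WT libraries, at least 9.20-fold higher (24 against 0 UMIs). The gene passed the filter there only through 1 library of each MCAO/R group. The neutrophil markers in these cells were at 40.8 to 51.4 CPM in sham + WT and at 79.7 and 88.9 CPM in MCAO/R + WT. In sham + *Lrg1*-/-, *Mmp8* had 2 UMIs in microglia, 2 in endothelial cells and 0 in oligodendrocytes, and *Mmp9* had 3 in microglia and 7 in endothelial cells. In border-associated macrophages, where 28.1% of the *Mmp9* UMIs of sham + WT mice were counted, *Mmp9* was at 11.0, 16.3 and 18.6 CPM in sham + WT, 12.1 and 8.42 CPM in MCAO/R + WT and 5.15, 19.4 and 18.4 CPM in MCAO/R + *Lrg1*-/-, with no call in any contrast.

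*Mmp14*, a membrane-anchored enzyme that activates the precursor of MMP2 (chr14:54431612-54445364, plus strand), rose in border-associated macrophages in both genotypes. Its level in sham + WT mice was highest in fibroblasts (142 ± 32.3 CPM), then in astrocytes (61.6 ± 13.1) and pericytes (60.7 ± 9.09), whose ranges overlapped. In border-associated macrophages it was at 4.53, 1.88 and 3.19 CPM in sham + WT, at 2.76, 10.9 and 10.6 CPM in sham + *Lrg1*-/-, at 34 and 14.2 CPM in MCAO/R + WT and at 103, 40.7 and 59.0 CPM in MCAO/R + *Lrg1*-/-. The values of sham + *Lrg1*-/- replicate 5 and MCAO/R + *Lrg1*-/- replicate 1 come from 12 and 11 cells and were not tested. Replicates 1 and 2 of sham + *Lrg1*-/- held 75 and 39 such cells. All MCAO/R libraries lay above all sham libraries. The increase was 7.65-fold in WT (log2 2.94 ± 0.48, adjusted p = 0.00122; 2.07 without MCAO/R + WT replicate 1) and 7.20-fold in knockout mice (2.85 ± 0.62, adjusted p = 0.013). The latter was lost without MCAO/R + *Lrg1*-/- replicate 2 (0.0864) or sham + *Lrg1*-/- replicate 1 (0.113), and was 4.01 without sham + *Lrg1*-/- replicate 2. In MCAO/R + *Lrg1*-/- mice *Mmp14* was highest in monocytes and monocyte-derived macrophages (107.5 ± 48.6 CPM), with border-associated macrophages at 49.9 ± 12.9 CPM. These monocytes and macrophages numbered 1317 in that group and 66 in sham + *Lrg1*-/-, and their part in the increase was not tested. In microglia *Mmp14* was between 14.9 and 33.2 CPM in all libraries with no call. In oligodendrocytes *Mmp14* was at 2.08 and 0.986 CPM in MCAO/R + WT and at 4.88, 5.04 and 4.27 CPM in MCAO/R + *Lrg1*-/- (1.77 ± 0.55, adjusted p = 0.0274). This call was lost without MCAO/R + WT replicate 2 or MCAO/R + *Lrg1*-/- replicate 2 (adjusted p = 0.0628 for the latter). The microglial markers in these cells were at 426 and 225 CPM in MCAO/R + WT and at 703 to 1676 CPM in MCAO/R + *Lrg1*-/-, and their part was not tested.

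**Figure D5:**
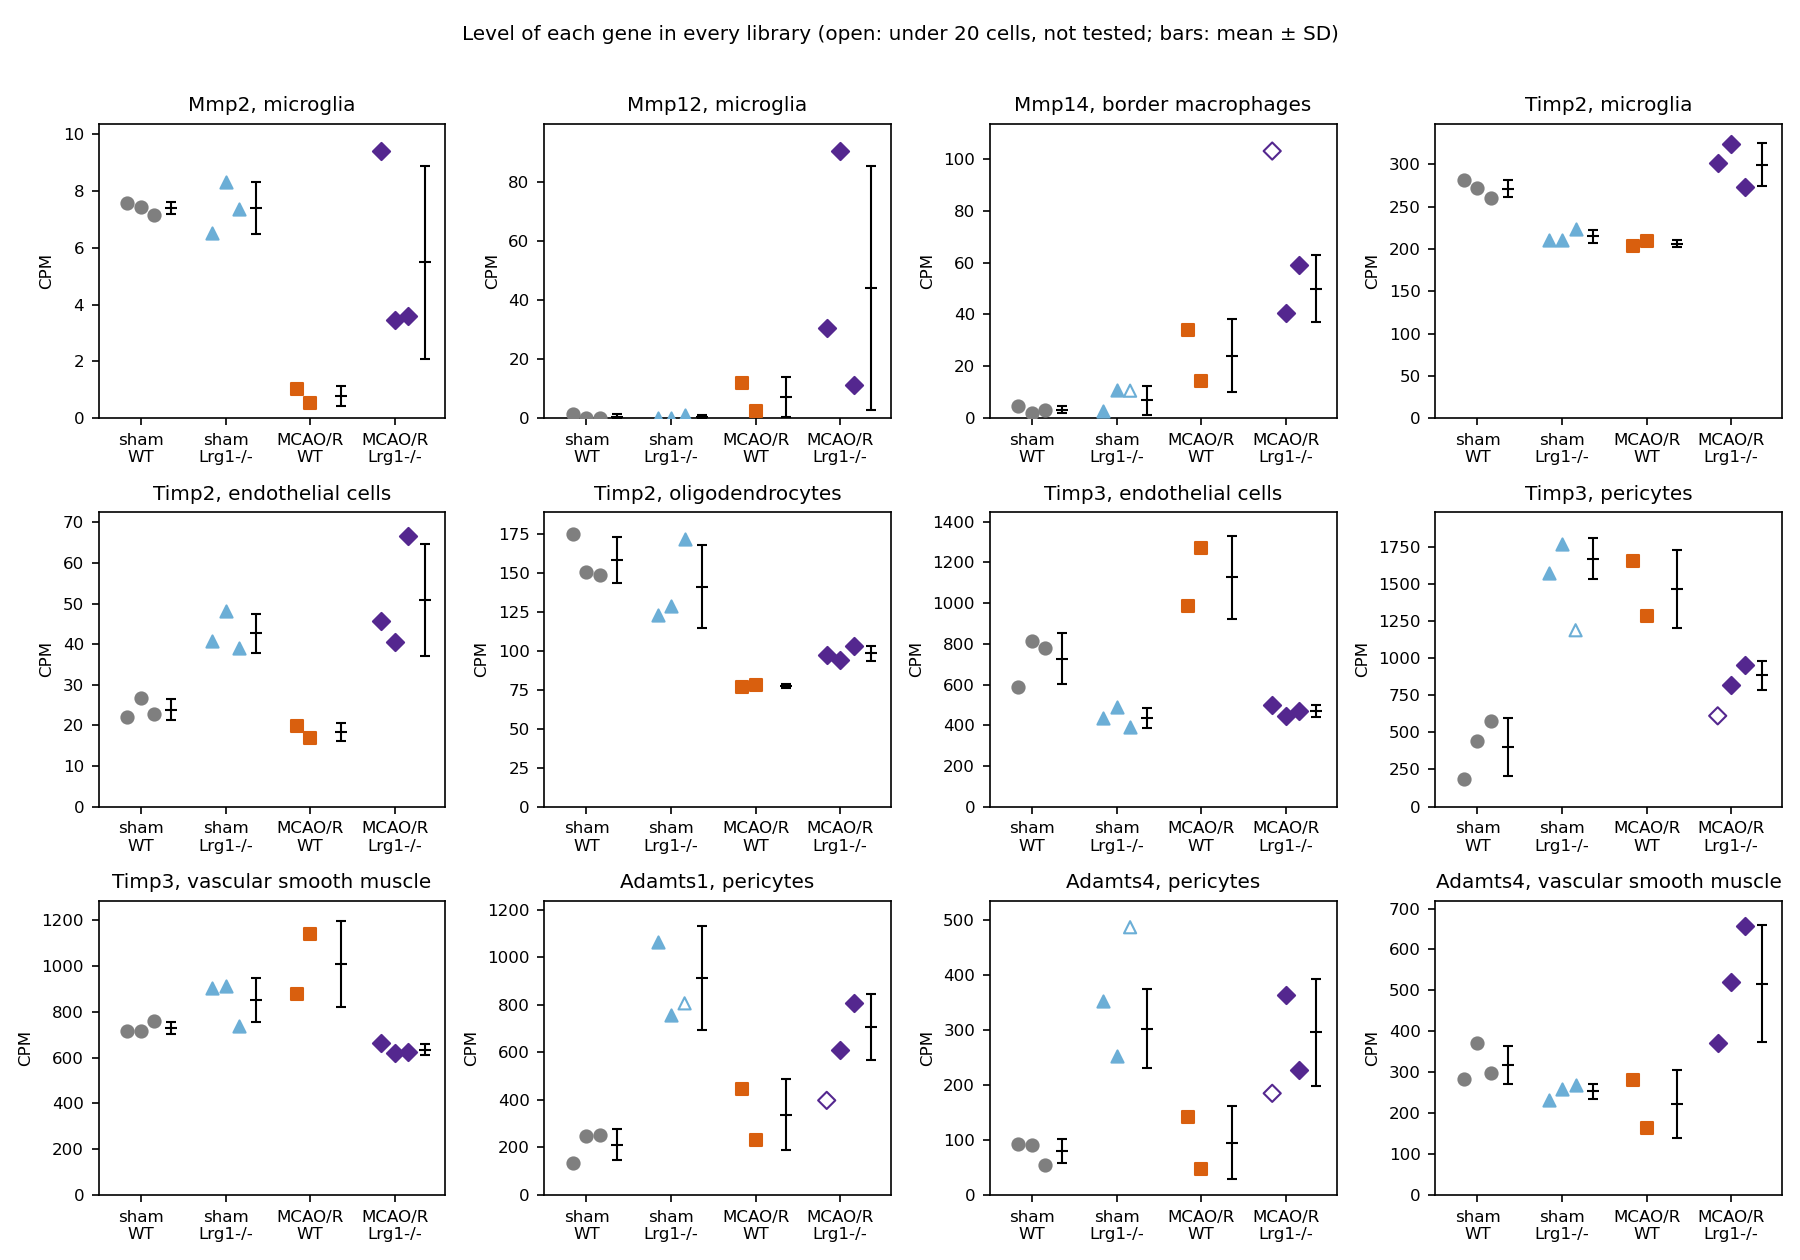
Level of 7 genes in every library (CPM) for 12 pairs of gene and cell type, with the mean ± SD of the libraries that held at least 20 cells and open symbols for those with fewer, which were not tested. Both MCAO/R + WT libraries lie below all others for *Mmp2* in microglia and above all others for *Timp3* in endothelial cells.

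*Timp2*, the inhibitor that takes part in the activation of MMP2 (chr11:118301069-118355740, minus strand), moved in 2 directions depending on the genotype in microglia. It was at 282, 272 and 261 CPM in sham + WT, at 211, 211 and 224 CPM in sham + *Lrg1*-/-, at 203 and 209 CPM in MCAO/R + WT and at 301, 324 and 273 CPM in MCAO/R + *Lrg1*-/- microglia. The sham + WT and MCAO/R + *Lrg1*-/- libraries formed the upper range and the other 5 libraries the lower one, with no overlap. *Timp2* was lower in sham + *Lrg1*-/- than in sham + WT (log2 -0.53 ± 0.11, adjusted p = 0.00471) and higher in MCAO/R + *Lrg1*-/- than in sham + *Lrg1*-/- (0.59 ± 0.11, adjusted p = 0.00134), and the interaction was 0.98 ± 0.17 (adjusted p = 0.00738). The fall in WT mice (-0.40 ± 0.13, adjusted p = 0.0365) was lost without any 1 of the 5 WT libraries (0.0665 to 0.123) or sham + *Lrg1*-/- replicate 1 or 2 (0.0516 and 0.0534). The difference between MCAO/R groups (0.45 ± 0.13, adjusted p = 0.0228) was lost without MCAO/R + WT replicate 1 (0.0502) or 2 (0.119) or MCAO/R + *Lrg1*-/- replicate 2 (0.067), with cells thinned to 1000 UMIs (0.175) and with no low-count filter (0.0822). Microglia were the type with the highest *Timp2* level in sham + WT mice (272 ± 10.4 CPM), above border-associated macrophages (242 ± 14.2). The sham microglia of the genotypes lay in different clusters. Cluster 2.3 held 71.6% of those of sham + *Lrg1*-/-, and clusters 2.0, 2.1 and 2.2 held 52.7%, 21.2% and 16.2% of those of sham + WT. The part of this in the change of *Timp2* was not tested.

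In endothelial cells *Timp2* was higher in the knockout in both surgeries. Its level was 22, 26.8 and 22.9 CPM in sham + WT, 40.8, 48.2 and 39 CPM in sham + *Lrg1*-/-, 20 and 16.9 CPM in MCAO/R + WT and 45.7, 40.5 and 66.5 CPM in MCAO/R + *Lrg1*-/- endothelial cells. The 6 knockout libraries lay above the 5 WT libraries. The difference was 1.81-fold after sham surgery (adjusted p = 0.0035; 0.0673 with cells thinned to 1000 UMIs) and 2.62-fold after MCAO/R (1.39 ± 0.18, adjusted p = 0.000323). The red blood cell markers in these cells were at 383 to 1508 CPM in the WT libraries and at 17100 to 26790 CPM in the knockout libraries. The microglial markers were at 462 to 572 CPM in sham + WT and at 629 to 797 CPM in sham + *Lrg1*-/-. After MCAO/R they were at 416.8 and 288.5 CPM in WT and at 520, 521 and 1158 CPM in the knockout. The part of these markers was not tested. In oligodendrocytes *Timp2* fell in WT mice from 175, 150 and 149 CPM to 76.6 and 78.2 CPM, or 2.15-fold (-1.11 ± 0.13, adjusted p = 2.82e-05). In the knockout it went from 123, 129 and 172 CPM to 97.6, 94.1 and 104 CPM (-0.52 ± 0.12, adjusted p = 0.0122; 0.403 with thinned cells and 0.143 with doublets kept). The MCAO/R + *Lrg1*-/- libraries were above those of MCAO/R + WT (0.44 ± 0.13, adjusted p = 0.0206), a call lost without MCAO/R + WT replicate 1 (0.0817) or 2 (0.0863). Most oligodendrocytes of sham + WT were in cluster 3.2 (65.1%), of MCAO/R + WT in cluster 3.1 (82.2%) and of MCAO/R + *Lrg1*-/- in cluster 3.0 (78.4%). Pooled within cluster 3.3, *Timp2* was at 74.3 CPM in sham + WT, 29.8 in MCAO/R + WT and 56.6 in MCAO/R + *Lrg1*-/-, and within cluster 3.4 at 158, 92.8 and 140 CPM. The microglial markers in oligodendrocytes, given with *Mmp12*, were also higher in MCAO/R + *Lrg1*-/- than in MCAO/R + WT. The part of the cluster shift and of these markers was not tested.

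Pericytes showed the greatest genotype difference of *Timp2* among the called tests. There it was at 30.9, 52.6 and 43.6 CPM in sham + WT, at 163, 174 and 195 CPM in sham + *Lrg1*-/-, at 35.1 and 32.5 CPM in MCAO/R + WT and at 46.3, 70.4 and 102 CPM in MCAO/R + *Lrg1*-/-. It was 4.09-fold higher in the sham + *Lrg1*-/- group (2.03 ± 0.27, adjusted p = 0.000105; 1.34 and 0.343 with thinned cells) and 2.49-fold higher in the MCAO/R + *Lrg1*-/- group (adjusted p = 0.00677; 0.148 without MCAO/R + *Lrg1*-/- replicate 2, and 0.663 with thinned cells). The tested sham + *Lrg1*-/- libraries, replicates 1 and 2, held 37 and 25 pericytes, against 216, 238 and 213 in the sham + WT libraries. Pericytes of sham + *Lrg1*-/- lay mostly in another cluster than those of sham + WT and held more of the markers of other cell types, as given for *Timp3*. In the tested MCAO/R pericytes, microglial markers were at 418 and 326 CPM in WT and at 798 and 1213 CPM in the knockout, neutrophil markers at 21.3 and 30 CPM against 330 and 352 CPM, and red blood cell markers at 24.5 and 17 CPM against 46680 and 38760 CPM, and their part in the differences of *Timp2*, *Adamts1* and *Adamts4* was not tested. Increases in MCAO/R + *Lrg1*-/- over MCAO/R + WT were also called in border-associated macrophages (1.91-fold, adjusted p = 0.0061; 0.122 without MCAO/R + *Lrg1*-/- replicate 2), neurons and neuroblasts (2.5-fold, 0.0177; 0.0634 and 0.167 without MCAO/R + WT replicate 1 and 2) and choroid plexus epithelial cells (1.48-fold, 0.0247; 0.161 without MCAO/R + WT replicate 2 and 0.0541 without MCAO/R + *Lrg1*-/- replicate 1). In the choroid plexus, sham + *Lrg1*-/- was 1.35-fold above sham + WT (0.0472), and leaving out any 1 of 7 libraries ended that call (0.0588 to 0.147), as did no low-count filter (0.0563), doublets kept (0.0821) and a mitochondrial limit of 10% (0.0815). Thinning ended the calls in border-associated macrophages (0.481), neurons and neuroblasts (0.164) and the choroid plexus (0.613 and 0.325).

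*Timp3*, the inhibitor that is held in the extracellular matrix and also blocks ADAMTS proteases (chr10:86300372-86349506, plus strand), rose in endothelial cells, pericytes and vascular smooth muscle cells of WT mice after MCAO/R. After MCAO/R it was lower in the knockout than in WT endothelial and vascular smooth muscle cells, with no call in pericytes. In sham + WT mice it was highest in fibroblasts (1025 ± 364 CPM), vascular smooth muscle cells (731 ± 26.5) and endothelial cells (727 ± 124), whose ranges overlapped, and lower in pericytes (402 ± 196). Endothelial cells held 66.7% of its UMIs. In endothelial cells *Timp3* was at 586, 816 and 780 CPM in sham + WT, at 434, 488 and 391 CPM in sham + *Lrg1*-/-, at 984 and 1271 CPM in MCAO/R + WT and at 498, 443 and 468 CPM in MCAO/R + *Lrg1*-/-. The groups did not overlap except that the ranges of both knockout groups did. MCAO/R + WT was 1.60-fold above sham + WT (0.67 ± 0.15, adjusted p = 0.00724; 0.0809 without MCAO/R + WT replicate 2), and MCAO/R + *Lrg1*-/- was 2.48-fold below MCAO/R + WT (-1.31 ± 0.15, adjusted p = 0.000155). The knockout was also lower after sham surgery (1.64-fold, adjusted p = 0.00418; 0.0526 with cells thinned to 1000 UMIs). Between the knockout groups the difference was 0.08 (adjusted p = 0.727) and the interaction -0.60 (adjusted p = 0.157), neither of which passed the test. The groups filled different endothelial clusters. Clusters 6.0, 6.1 and 6.2 held 38.1%, 29.7% and 15.6% of the sham + WT cells, clusters 5.1 and 5.0 held 48.0% and 29.2% of MCAO/R + WT, and cluster 5.0 held 60.3% of MCAO/R + *Lrg1*-/- cells. Pooled within cluster 5.0, *Timp3* was at 665 CPM in MCAO/R + WT and 339 CPM in MCAO/R + *Lrg1*-/-, and within cluster 5.1 at 782 and 474 CPM. The part of the clusters in the change with surgery was not tested.

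In pericytes the order of the groups was another. *Timp3* was at 188, 445 and 574 CPM in sham + WT, at 1572, 1766 and 1187 CPM in sham + *Lrg1*-/-, at 1652 and 1280.2 CPM in MCAO/R + WT and at 611, 816 and 954 CPM in MCAO/R + *Lrg1*-/- pericytes. The values of sham + *Lrg1*-/- replicate 5 and MCAO/R + *Lrg1*-/- replicate 1 rest on 15 and 16 cells and were not tested. The tested sham + *Lrg1*-/- libraries held 37 and 25 cells. Sham + WT held the lowest values, and MCAO/R + *Lrg1*-/- lay between it and the other groups. The increase in WT was 3.67-fold (1.88 ± 0.28, adjusted p = 0.000469), the sham genotype difference was 4.32-fold (2.11 ± 0.29, adjusted p = 0.000158) and the interaction was -2.77 ± 0.44 (adjusted p = 0.00539). Pericytes fell into 2 clusters. The smaller, 7.4, held 13.9% of sham + WT, 66.2% of sham + *Lrg1*-/-, 12.3% of MCAO/R + WT and 42.1% of MCAO/R + *Lrg1*-/- pericytes, and *Timp3* was higher in it than in cluster 7.1 in every group. Within cluster 7.1 the pooled level was 150, 366, 1181 and 572 CPM in that order of groups, and within cluster 7.4 it was 1736, 1886, 2687 and 1016 CPM. The sham + *Lrg1*-/- values rest on 26 cells in cluster 7.1 and 51 cells in cluster 7.4. The summed smooth muscle markers in pericytes were at 1928 to 2343 CPM in sham + WT, 4352 to 5977 CPM in sham + *Lrg1*-/- and 1500 to 1797 CPM in the tested MCAO/R libraries. Fibroblast markers in pericytes were at 323 to 487 CPM in sham + WT and 667 to 838 CPM in sham + *Lrg1*-/-, and microglial markers at 494 to 620 CPM and 1050 to 1295 CPM. The part of these shifts was not tested.

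*Timp3* also rose after MCAO/R in vascular smooth muscle cells, microglia, oligodendrocytes and border-associated macrophages of WT mice. In vascular smooth muscle cells it was at 716, 715 and 761 CPM in sham + WT, 904, 912 and 739 CPM in sham + *Lrg1*-/-, 876 and 1140.3 CPM in MCAO/R + WT and 664, 618 and 623 CPM in MCAO/R + *Lrg1*-/-. The MCAO/R + *Lrg1*-/- libraries were below all others. The increase in WT (0.48 ± 0.13, adjusted p = 0.0219) was lost without MCAO/R + WT replicate 2 (0.298) and without sham + WT replicate 1 or 2 (0.0661 and 0.0785). The lower level in MCAO/R + *Lrg1*-/- than in MCAO/R + WT (-0.69 ± 0.13, adjusted p = 0.00219) had an adjusted p of 0.0569 without MCAO/R + WT replicate 2. Against sham + *Lrg1*-/- it was -0.46 ± 0.12 (adjusted p = 0.0164; 0.0646 without MCAO/R + *Lrg1*-/- replicate 2, 0.0647 and 0.0774 without sham + *Lrg1*-/- replicates 1 and 2, 0.116 with thinned cells). The interaction was -0.93 ± 0.17 (adjusted p = 0.0246), and leaving out any 1 of 6 libraries ended it (0.0523 to 0.155).

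In microglia *Timp3* was far lower, at 7.64, 12.6 and 13 CPM in sham + WT, 19.6, 22.1 and 17.2 CPM in sham + *Lrg1*-/-, 27.3 and 26.1 CPM in MCAO/R + WT and 9.21, 20.2 and 8.59 CPM in MCAO/R + *Lrg1*-/-. Both MCAO/R + WT libraries were above the rest. The increase in WT was 2.42-fold (adjusted p = 0.0134; 0.0599 without MCAO/R + WT replicate 1, 0.0582 without sham + WT replicate 1). The lower level in MCAO/R + *Lrg1*-/- (-1.10 ± 0.33, adjusted p = 0.0332) was lost without MCAO/R + *Lrg1*-/- replicate 1 or 5 or either MCAO/R + WT library (0.076 to 0.0876), and the interaction of -1.74 ± 0.46 (adjusted p = 0.0383) was lost without any 1 of 7 libraries (0.0537 to 0.0935). Without MCAO/R + *Lrg1*-/- replicate 2 they were -1.71 and -2.39, both called, and thinning ended the former (0.0553). The summed smooth muscle markers in microglia were at 253 to 327 CPM in sham + *Lrg1*-/- and at 76.5 to 145 CPM in all other libraries, and their part was not tested. In oligodendrocytes the increase in WT was 1.70-fold (adjusted p = 0.0226; 0.0898 to 0.118 without either MCAO/R + WT library or sham + WT replicate 2 or 3, and 0.162 with thinned cells), and in border-associated macrophages 2.14-fold (0.0275; 0.108 to 0.138 without MCAO/R + WT replicate 1 or sham + WT replicate 1 or 3, and 0.0674 with DESeq2). Choroid plexus epithelial cells of the sham groups filled different clusters. Clusters 4.2 and 4.1 held 43.3% and 34.7% of them in sham + *Lrg1*-/- and 10.5% and 6.85% in sham + WT. The part of this in the sham differences of *Timp3*, *Timp2*, *Mmp2*, *Mmp12* and *Adamts1* was not tested. In choroid plexus epithelial cells *Timp3* was at 386, 372 and 362 CPM in sham + WT, 138, 163 and 151 CPM in sham + *Lrg1*-/-, 255 and 288 CPM in MCAO/R + WT and 112, 157 and 127 CPM in MCAO/R + *Lrg1*-/-. All knockout libraries lay below all WT libraries. The knockout was 2.17-fold lower after sham surgery (adjusted p = 0.00155) and 1.73-fold lower after MCAO/R (adjusted p = 0.00682; 0.069 without MCAO/R + WT replicate 2), and with thinned cells neither call held (0.339 and 0.749).

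*Adamts1* (chr16:85793827-85803113, minus strand) was highest in vascular smooth muscle cells of sham + WT mice (791 ± 132 CPM), then in microglia (495 ± 52.5) and endothelial cells (421 ± 11.3), with no overlap between these neighbours. In microglia, which held 54.3% of its UMIs, it was at 442, 496 and 547 CPM in sham + WT, 601, 337 and 264 CPM in sham + *Lrg1*-/-, 957 and 253 CPM in MCAO/R + WT and 919, 733 and 494 CPM in MCAO/R + *Lrg1*-/-. The 2 MCAO/R + WT libraries were among the highest and the lowest of all, and no contrast was called. No contrast was called in endothelial cells either, where it was between 315 and 692 CPM. In pericytes it was at 136, 250 and 251 CPM in sham + WT, 1066, 757 and 806 CPM in sham + *Lrg1*-/-, 444 and 232 CPM in MCAO/R + WT and 398, 609 and 806 CPM in MCAO/R + *Lrg1*-/-. The sham + *Lrg1*-/- level was 4.46-fold higher than sham + WT (2.16 ± 0.28, adjusted p = 8.63e-05), with 37 and 25 cells in its tested libraries. After MCAO/R the knockout was 2.17-fold higher (adjusted p = 0.0226), which was lost without MCAO/R + *Lrg1*-/- replicate 2 (0.16) or 5 (0.0776) or MCAO/R + WT replicate 2 (0.11). The markers of other cell types that differed between these pericytes are given with *Timp2*. Within the pericyte clusters the pooled level was 90, 145, 208 and 284 CPM in cluster 7.1 and 865, 1096, 879 and 895 CPM in cluster 7.4 (sham + WT, sham + *Lrg1*-/-, MCAO/R + WT, MCAO/R + *Lrg1*-/-).

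Smaller changes of *Adamts1* were called elsewhere. In vascular smooth muscle cells of the knockout it rose 1.40-fold after MCAO/R (adjusted p = 0.0299; 0.1 without MCAO/R + *Lrg1*-/- replicate 2, 0.127 and 0.0641 without sham + *Lrg1*-/- replicates 1 and 2, 0.115 with thinned cells). In border-associated macrophages of WT mice it fell from 153, 106 and 108 CPM to 65.2 and 29.8 CPM (-1.33 ± 0.35, adjusted p = 0.024), which was lost without MCAO/R + WT replicate 2 (0.117) or sham + WT replicate 1 (0.0946) or 3 (0.0506), with doublets kept (0.131) and without the top cells (0.0831), and was -2.09 without MCAO/R + WT replicate 1. In choroid plexus epithelial cells it was at 182, 141 and 164 CPM in sham + WT and at 79.4, 79.4 and 84.8 CPM in sham + *Lrg1*-/- (1.75-fold lower, adjusted p = 0.0055). That call was lost with a mitochondrial limit of 10% (0.147) and turned to 0.23 on the log2 scale with thinned cells (0.668).

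*Adamts4* (chr1:171250421-171260637, plus strand) was highest in vascular smooth muscle cells (318 ± 47 CPM in sham + WT), then in oligodendrocytes (125 ± 5.25) and pericytes (79.2 ± 21.8), again without overlap, and oligodendrocytes held 58.9% of its UMIs. In vascular smooth muscle cells it was at 283, 371 and 299 CPM in sham + WT, 233, 258 and 270 CPM in sham + *Lrg1*-/-, 282 and 163 CPM in MCAO/R + WT and 371, 521 and 657 CPM in MCAO/R + *Lrg1*-/-. All 3 MCAO/R + *Lrg1*-/- libraries lay above those of sham + *Lrg1*-/- and MCAO/R + WT, and the lowest of them was level with the highest of sham + WT. The difference from MCAO/R + WT was 2.30-fold (1.20 ± 0.24, adjusted p = 0.00312; 0.0649 without MCAO/R + WT replicate 2) and that from sham + *Lrg1*-/- 2.02-fold (adjusted p = 0.00408). The interaction was 1.52 ± 0.31 (adjusted p = 0.0387) and was lost without any 1 of 9 libraries (0.0598 to 0.197) and with thinned cells (0.0748). In oligodendrocytes it was at 120, 130 and 124 CPM in sham + WT, 160, 166 and 111 CPM in sham + *Lrg1*-/-, 90.1 and 84.6 CPM in MCAO/R + WT and 134, 102 and 113 CPM in MCAO/R + *Lrg1*-/-. Both MCAO/R + WT libraries were the lowest of all 11. The fall in WT was 1.51-fold (-0.59 ± 0.15, adjusted p = 0.00945; 0.0636 without MCAO/R + WT replicate 2), and the difference between the MCAO/R groups 1.41-fold (adjusted p = 0.0248; 0.0506 to 0.123 without either MCAO/R + WT library or MCAO/R + *Lrg1*-/- replicate 1, and 0.137 with thinned cells).

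In pericytes *Adamts4* was at 92.8, 90.9 and 54 CPM in sham + WT, 354, 252 and 487 CPM in sham + *Lrg1*-/-, 142 and 48 CPM in MCAO/R + WT and 185, 365 and 227 CPM in MCAO/R + *Lrg1*-/-. Every knockout library was above every WT library. The knockout was 3.95-fold higher after sham surgery (adjusted p = 0.00297; 0.0974 without sham + *Lrg1*-/- replicate 1) and 3.6-fold higher after MCAO/R (1.85 ± 0.38, adjusted p = 0.00466; 0.398 without MCAO/R + *Lrg1*-/- replicate 2, and a value of 2.83 without MCAO/R + WT replicate 1). As given for *Timp3*, the smooth muscle markers and the share of cluster 7.4 were also higher in sham + *Lrg1*-/- pericytes, and after MCAO/R the microglial, neutrophil and red blood cell markers were higher in the knockout, as given for *Timp2*. Pooled *Adamts4* was at 19.8, 48.2, 33.1 and 92.9 CPM in cluster 7.1 and at 396, 431, 357 and 519 CPM in cluster 7.4 (sham + WT, sham + *Lrg1*-/-, MCAO/R + WT, MCAO/R + *Lrg1*-/-), and the part of the cluster shares was not tested. In endothelial cells it was at 6.71, 4.81 and 11.9 CPM in sham + *Lrg1*-/- and at 21.2, 46.7 and 42.6 CPM in MCAO/R + *Lrg1*-/- (5.08-fold, adjusted p = 0.0106; 0.0583 without sham + *Lrg1*-/- replicate 2). The WT libraries were at 5.95, 6.29 and 6.77 CPM after sham surgery and at 27.8 and 5.49 CPM after MCAO/R (adjusted p = 0.0778). Microglia held little *Adamts4*, between 0.651 and 5.49 CPM. It was higher in MCAO/R + *Lrg1*-/- than in MCAO/R + WT (2.91-fold, adjusted p = 0.0109; 0.0556 without MCAO/R + WT replicate 1, and 0.0819 with thinned cells) and than in sham + *Lrg1*-/- (2.24-fold, adjusted p = 0.0321, lost without any sham + *Lrg1*-/- library or MCAO/R + *Lrg1*-/- replicate 2 or 5, at 0.0686 to 0.107, and with thinned cells, at 0.353). In T cells it was called at 33 against 2 UMIs in sham + *Lrg1*-/- against sham + WT (adjusted p = 0.0493), and 6 libraries ended the call when left out (0.0569 to 0.165), as did DESeq2 (0.0612), other size factors (0.0508) and a minimum of 50 cells (0.12).

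The pattern of each gene over cell types was compared with all genes that reached 10 CPM in some type, by Pearson's r of log2(CPM + 1) over the 29 points of cell type and WT group. These values describe the pattern only, since the points share libraries. The nearest genes were *Pdgfra* for *Mmp2* (r = 0.869), *Slfn4* for *Mmp8* (0.982), *Fpr1* for *Mmp9* (0.935), *P3h3* for *Mmp14* (0.878), *Naglu* for *Timp2* (0.762), *Hspg2* for *Timp3* (0.931), *Rilpl1* for *Adamts1* (0.84) and *Cdh6* for *Adamts4* (0.859), among 15509 genes. *Mmp3* and *Mmp12* were not compared, since their group means over libraries with at least 20 cells stayed under 10 CPM in every WT type.

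Among the other genes of the pathway, 11 of 38 tests of the inhibitors *Timp1*, *Timp4*, *Reck* and *A2m* were called higher and 0 lower in MCAO/R + WT against sham + WT. Over all genes and the same cell types, 5.25% of tests were called higher and 4.96% lower in this contrast, and in MCAO/R + *Lrg1*-/- against MCAO/R + WT 7.68% higher and 7.20% lower. These shares differed widely between cell types, as given above. The lists, like the members, were chosen with earlier results of these data known, so the shares are a description. *Timp1*, an inhibitor known to be induced by injury, rose in 7 cell types, for example from 0.992 to 1.11 CPM to 8.93 to 19.0 CPM in endothelial cells (log2 3.77 ± 0.54, adjusted p = 0.000469) and from 8.94 to 49.4 CPM to 483 to 924 CPM in fibroblasts (4.77 ± 0.65, adjusted p = 0.0196). In MCAO/R + *Lrg1*-/- against MCAO/R + WT 6 of 38 were higher and 1 lower. *A2m*, the gene of the broad protease inhibitor alpha-2-macroglobulin, was higher in 5 cell types, for example in microglia (2.67 to 4.07 CPM against 0.289 to 0.597, adjusted p = 0.000756), and *Timp4* was lower in astrocytes (-2.17 ± 0.30, adjusted p = 0.00792).

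Of 47 tests of other matrix metalloproteinases after MCAO/R in WT mice, 2 were called higher and 10 lower. *Mmp19* rose in border-associated macrophages (3.79 ± 0.48, adjusted p = 0.00018) and microglia (3.05 ± 0.49, adjusted p = 0.000682). *Mmp15*, a membrane-anchored enzyme, fell in endothelial cells, microglia, oligodendrocytes and pericytes (endothelial -2.51 ± 0.29, adjusted p = 9.84e-05), and *Mmp28* fell in endothelial cells and microglia (microglia -3.06 ± 0.35, adjusted p = 6.38e-05). Between the MCAO/R groups 5 were higher and 1 lower of 49 tests in the knockout, with *Mmp15* (1.99 ± 0.36, adjusted p = 0.00226) and *Mmp28* (1.10 ± 0.36, adjusted p = 0.0465) among those higher in microglia. Of the other ADAMTS proteases 10 were higher and 14 lower of 92 tests after MCAO/R in WT. *Adamts9* rose in 5 cell types, in endothelial cells from 77.6 to 87.2 CPM to 301 and 1156 CPM (3.20 ± 0.54, adjusted p = 0.00136), whereas *Adamts16* fell in microglia from 26.1 to 44.2 CPM to 0.193 and 0.840 CPM (-6.02 ± 0.49, adjusted p = 4.1e-06) and was higher there in MCAO/R + *Lrg1*-/- (4.86 to 10.9 CPM, 3.41 ± 0.47, adjusted p = 0.000392). Between the MCAO/R groups 6 were higher and 3 lower of 94.

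The activators and the plasmin system, which turn precursors into active enzymes, gave 22 higher and 8 lower of 107 tests after MCAO/R in WT mice. *Plaur*, the urokinase receptor, rose in 7 cell types, in microglia from 25.2 to 42.3 CPM to 217 and 221 CPM (2.70 ± 0.20, adjusted p = 2.22e-06). *Bsg*, an inducer of metalloproteinases, fell in 5 cell types. Between the MCAO/R groups 18 were higher and 5 lower of 116. *Plat*, the tissue plasminogen activator, was lower in the knockout in endothelial cells (414 to 509 CPM against 1082 and 1203 CPM, -1.35 ± 0.17, adjusted p = 0.000265), microglia, oligodendrocytes and pericytes, after it had risen with surgery in these 4 types in WT mice. Of the matrix substrates 16 were higher and 6 lower of 138 tests after MCAO/R in WT. *Col4a1* and *Col4a2*, the chains of basement membrane collagen, rose in endothelial cells (1.07 ± 0.19 and 1.42 ± 0.20, adjusted p = 0.00231 and 0.00038), where *Lama4* and *Agrn* fell (-1.19 ± 0.14 and -1.48 ± 0.18, adjusted p = 0.000131 and 0.000138). Between the MCAO/R groups 10 were higher and 8 lower of 143, and *Lama4* (0.86 ± 0.14, adjusted p = 0.00127) and *Agrn* (0.83 ± 0.18, adjusted p = 0.0054) were higher in knockout endothelial cells. Between the sham groups, sham + *Lrg1*-/- against sham + WT, the lists gave 18 higher and 6 lower of 107 for the activators and plasmin system, 8 and 7 of 137 for the substrates, 3 and 5 of 88 for the other ADAMTS proteases, 3 and 2 of 37 for the other inhibitors and 2 and 1 of 45 for the other metalloproteinases, beside 5.76% and 5.85% of all tests.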

How the data were processed

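The deposited files hold raw UMI counts per gene and barcode for 11 libraries. The headers of the deposited count matrices name Cell Ranger 7.0.1, whereas the paper's methods name an earlier version, and the submitters' processing notes name STAR and mm10. The members and the gene lists were chosen with earlier results of these data known. Per the study's methods, barcodes with over 500 genes, over 1000 UMIs and under 25% mitochondrial UMIs were kept (132437 of 155804), and 7023 likely doublets were removed by a score against simulated doublets, at its automatic threshold in 5 libraries (3.29% to 5.23% of cells) and as the highest 6% in the 6 libraries where that threshold marked almost none. Counts were log transformed, and 15 components of 2000 variable genes gave a neighbour graph balanced over libraries (3 neighbours each), clustered at a resolution of 0.3 and then split again (Python 3.11.15, igraph 0.11.9, leidenalg 0.10.2), into 88 clusters. A cluster was named when at least 3 markers of a type were in 10% of its cells at 2 times the median cluster, with a log2 margin of 1 over the next type and a score within 2.5 of the best cluster of that type, which named 69.

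Raw counts were summed per library and type, and libraries with 20 or more cells of a type, where each compared group had 2 or more of them, entered edgeR 4.0.16 (R 4.3.3, TMM, its own low-count filter), in 1 fit over all groups with no replicate block. The script was tested on simulated data. CPM are counts divided by the total of the library and type, and fold changes are on the TMM scale. Folds against 0 UMIs use a floor of 3 counts over the group, and 95% intervals of ratios cover counting error only. All 10 genes are named, with *Lrg1* as the check, listed pathway genes by their calls and the nearest gene by pattern. Gene positions are from the GENCODE annotation of GRCm38, and promoters from RefSeq, with none shown for *Mmp2*, *Mmp9* and *Adamts4*. The alternatives were DESeq2 1.42.0, other size factors, no filter, no fold limit, the replicate block, doublets kept, 10% mitochondrial UMIs, 50 cells, cells thinned to 1000 UMIs and each library left out. Counting a *Klk9*-led cluster as oligodendrocytes and leaving out the top cell per gene and library were chosen after seeing the data.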

Additional observations from a re-analysis of the deposited data

Results flagged for a closer look

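The interaction term of edgeR, which asks whether the change after MCAO/R differed between the genotypes, was called in 6 of 70 tests. Over all genes 1.8% of tests were called. The count fell to 3 without any 1 of the sham + WT replicates. In microglia the log2 difference of the changes was 2.72 for *Mmp2*, 0.98 for *Timp2* and -1.74 for *Timp3*, in pericytes it was -2.77 for *Timp3*, and in vascular smooth muscle cells it was -0.93 for *Timp3* and 1.52 for *Adamts4*. In every case the sham groups of both genotypes entered the term, and the sham + *Lrg1*-/- libraries carried the red blood cell markers described above.

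Cells in unnamed clusters entered no comparison. In them *Mmp3* was at 1.05, 4.21 and 5.91 CPM in the MCAO/R + *Lrg1*-/- libraries, the lowest of which was above every sham library. *Timp3* was at 526 and 1022 CPM in the unnamed cells of the MCAO/R + WT libraries, against 166 to 512 CPM in the sham libraries, and *Adamts4* was at 50.5 and 32.1 CPM against 13.8 to 25.9 CPM. These clusters mix cell types, and their makeup differed between the groups.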

How the results depend on the processing

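Of the 59 called tests of genes that passed the low-count filter through more than 1 group, 16 kept their call under every alternative that could be fitted, among them those of *Mmp2* in microglia and of *Timp3* in endothelial cells between the MCAO/R groups. The number of calls moved most in these settings. With no low-count filter it was 51 for MCAO/R + *Lrg1*-/- minus MCAO/R + WT, 33 for MCAO/R + *Lrg1*-/- minus sham + *Lrg1*-/- and 11 for the interaction, since more genes were tested. With cells thinned to 1000 UMIs it was 12, 5 and 4 for MCAO/R + *Lrg1*-/- minus MCAO/R + WT, sham + *Lrg1*-/- minus sham + WT and MCAO/R + *Lrg1*-/- minus sham + *Lrg1*-/-, and with at least 50 cells it was 7 for sham + *Lrg1*-/- minus sham + WT. No sham + *Lrg1*-/- library held 50 pericytes, so the 4 pericyte calls of that contrast could not be tested at this minimum. The labels give replicate numbers, and no pairing by them was seen (104 comparisons of same-numbered libraries over 8 cell types, correlation of deviations -0.303 to 0.186, 7 over 0.1). These comparisons repeat the same pairs of libraries in each cell type and are not independent. Differently numbered pairs were not compared, so a pairing or a shared batch was not excluded. With the replicate block, the count went from 14 to 9 for MCAO/R + WT minus sham + WT and from 13 to 7 for sham + *Lrg1*-/- minus sham + WT, and 38 of the 59 calls were kept. Losses under this block are not listed with the genes above. Among them was *Adamts1* in pericytes between the MCAO/R groups (edgeR adjusted p = 0.0934). Another was *Adamts1* in knockout vascular smooth muscle cells after MCAO/R (0.0602). Leaving out a library gave 8 to 16 calls for MCAO/R + WT minus sham + WT, 14 to 31 for MCAO/R + *Lrg1*-/- minus MCAO/R + WT, 9 to 14 for sham + *Lrg1*-/- minus sham + WT, 9 to 24 for MCAO/R + *Lrg1*-/- minus sham + *Lrg1*-/- and 3 to 10 for the interaction. DESeq2 kept 55 of the 59 calls and other size factors 58. Leaving out the top cell, chosen after seeing the data, kept 55 of 58, and counting the *Klk9*-led cluster as oligodendrocytes, also chosen then, 7 of 7. The direction turned for *Mmp8* in neutrophils between the MCAO/R groups without MCAO/R + *Lrg1*-/- replicate 2 (-1.65, against 1.10 without replicate 5, the range over left-out libraries) and for *Adamts1* in choroid plexus epithelial cells between the sham groups with thinned cells (0.23). The cause was not tested. Among 620 mean levels under 3290 alternatives, 275 moved by more than 1 SD, none of them under a left-out library. Leaving out 1 library of a group cannot shift its mean by more than 1 SD. Those alternatives could therefore not count as moved and show nothing about stability.

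Depth limits *Mmp3*, *Mmp8*, *Mmp9* and *Mmp12* outside their main cell types, where a group held few UMIs. The MCAO/R + WT group has 2 mice, and without its replicate 2, 37 of 58 calls were kept.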
